A study of Rattus norvegicus with 6 samples.

Results

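The genes described here are those of Wnt signalling at the cell surface: the Wnt ligands, the Frizzled receptors with their co-receptors Lrp5 and Lrp6, the secreted antagonists of the Sfrp, Frzb, Wif1 and Dickkopf (Dkk) families, and beta-catenin (Ctnnb1) with Axin2 and Lef1. They were chosen by gene symbol and came to 44 of the 31368 genes counted, in RNA sequenced from rat renal tissue. There were 3 libraries labelled CKD (chronic kidney disease) and 3 labelled Sham (the controls). All came from wild-type (WT) animals, and the design text places the disease model in male Sprague-Dawley rats aged 8 weeks. The procedure that produced the disease, the time after it and the part of the kidney taken are not stated in the sources used here. Whether each library is a different animal is not stated either, so the p-values cover the spread among these libraries, and that spread may be technical.

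Wnt proteins are secreted, lipid-modified ligands that bind a Frizzled receptor together with Lrp5 or Lrp6. In the canonical branch this binding keeps beta-catenin from being degraded, and beta-catenin then works with TCF/LEF factors in the nucleus. Sfrp proteins, Frzb and Wif1 bind the ligands outside the cell, and most Dickkopf proteins block Lrp5 and Lrp6. In the embryonic mouse kidney Wnt9b and Wnt4 drive the formation of nephrons, and in the adult the pathway is known for its activity after injury and in fibrosis.

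Libraries held 17240755 to 17503644 counts in CKD and 15918035 to 17409090 in Sham. Values are CPM, the count divided by the library total after scaling by TMM factors, so that 1 count stood for 0.0482 to 0.0512 CPM in CKD and 0.0666 to 0.0703 CPM in Sham. The Sham libraries differed more from each other than the CKD libraries did (chi-square per degree of freedom 30.9 to 67.8 between CKD libraries and 139 to 330 between Sham libraries). Mitochondrial genes took 8.83% to 10.8% of counts in CKD, against 37.9% in Sham 2 and 14.4% and 15.3% in Sham 1 and Sham 3. Markers of the collecting duct and inner medulla summed to 550.4 to 625 CPM in CKD, against 3155 CPM in Sham 2 and 754 and 928 CPM in Sham 1 and Sham 3. Fibroblast and pericyte markers summed to 1470, 1300 and 858 CPM in CKD 1, 2 and 3, against 515, 70.5 and 248 CPM in Sham 1, 2 and 3. All 9 genes of that list had a positive fold change, with Lum at 0 counts in Sham 2. Proximal tubule markers, which include the phosphate transporter Slc34a1, summed to 8561 to 11884 CPM in CKD and 4786 to 16434 CPM in Sham, so the tissue carried the RNA its label names.

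Both receptor genes Fzd1 and Fzd2 rose in CKD, by 3.98-fold and 3.77-fold, and no other member passed an adjusted p of 0.05 (edgeR's quasi-likelihood test, adjusted over all 15371 genes tested). Of the 44 members 31 passed the filter on low counts. The 2 called members were 2 higher and 0 lower, where 3.82% of all genes tested were called, 2.67% higher and 1.15% lower. Without Sham 1 the count was 9, and without any 1 of the other libraries it was 0. Wnt9a, Wnt5b, Fzd8, Dkk2, Sfrp1 and Frzb stood higher in every CKD library than in any Sham library, and Wnt2b, Fzd5 and Fzd9 stood lower, all with an unadjusted p under 0.05 that did not hold after adjustment. At that unadjusted level stood 8 members higher and 3 lower, where 23.8% of all genes did, 13.5% higher and 10.3% lower. The CKD and Sham libraries did not overlap in 17 of the 31, 14 higher and 3 lower, where 31.2% of all genes tested did not overlap, 18.8% higher and 12.4% lower. A positive fold change was found in 23 of the 31, against 49.5% of all genes tested, and in 28 of the 31 with library totals alone. Of the 31, Wnt7a, Wnt4 and Wnt9b reached the count minimum in CKD libraries alone, so that they could not have been tested without being higher there. The median log2 fold change was 0.53 over the 31, against -0.01 over all genes tested. Scaling by library totals alone moved the median of all genes by 0.42.

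**Figure D1:**
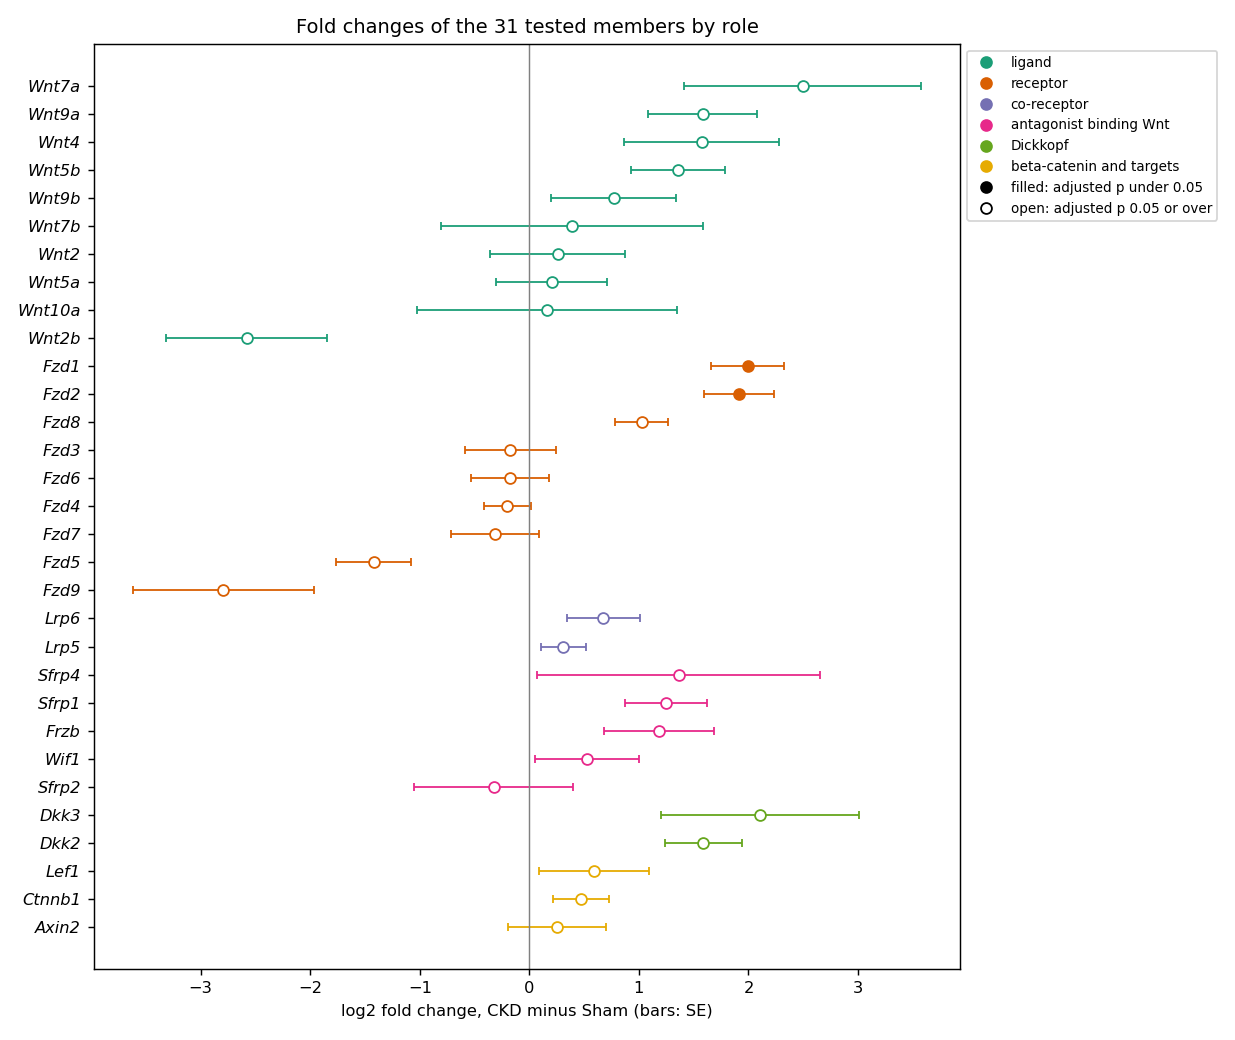
Log2 fold change of each of the 31 tested members, CKD minus Sham, by role, with bars for the standard error; filled points have an adjusted p under 0.05. Both filled points, Fzd1 and Fzd2, lie near 2, and the other receptors spread to either side of 0.

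Receptors. Fzd1 is a receptor that can pass the canonical signal, and it was the most abundant Frizzled RNA in CKD. It had 172, 182 and 174 CPM in CKD 1, 2 and 3, against 30.4, 34.3 and 68.1 CPM in Sham 1, 2 and 3. The CKD libraries lay close together and far above the highest Sham library. The log2 fold change was 1.99 ± 0.33 (SE; edgeR adjusted p = 0.0365). Without single libraries it stayed between 1.75 and 2.38, but the edgeR adjusted p was 0.0618 and 0.0584 without Sham 2 and Sham 3, and 0.162, 0.154 and 0.0526 without CKD 1, 2 and 3. In the deposited coordinates, whose build is uncertain, Fzd1 lies on the plus strand of chromosome 4 from 29310091 to 29312643.

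Fzd2 is a close relative of Fzd1 in the subfamily that also holds Fzd7. It had 11.4, 14.6 and 15.3 CPM in CKD 1, 2 and 3, against 2.53, 4.33 and 4.08 CPM in Sham 1, 2 and 3. Again the groups did not overlap, at a level per kilobase of 3.44 CPM in CKD, where Fzd1 had 106. These levels rest on the deposited gene lengths, and the coordinates of Fzd1 span more bases than its deposited length. The log2 fold change was 1.92 ± 0.32 (edgeR adjusted p = 0.0352). The edgeR adjusted p was 0.0586 and 0.109 without Sham 2 and Sham 3, and 0.161, 0.167 and 0.0626 without CKD 1, 2 and 3. Fzd2 lies on the plus strand of chromosome 10 from 87561326 to 87565334 in the deposited coordinates. Fzd7, the third of this subfamily, averaged 12.1 ± 1.60 CPM in CKD and 14.99 ± 7.10 CPM in Sham (SD, n = 3 each), with overlapping groups. Per kilobase of gene length, the ratio of Fzd2 to Fzd7 was 1.24, 1.62 and 1.35 in CKD 1, 2 and 3, against 0.456, 0.273 and 0.266 in Sham 1, 2 and 3. That ratio carries no test, and Fzd2 had already been called higher.

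Fzd5 and Fzd8 form a second subfamily, and their values lay on opposite sides. Fzd8 had 31.03, 30.4 and 26.4 CPM in CKD 1, 2 and 3, against 17.8, 14.1 and 11.3 CPM in Sham 1, 2 and 3. Fzd5 had 25.9, 26.4 and 34.0 CPM in CKD 1, 2 and 3, against 113, 44.3 and 73.6 CPM in Sham 1, 2 and 3. Neither gene had overlapping groups, and neither passed: the log2 fold change was 1.02 ± 0.24 for Fzd8 and -1.42 ± 0.34 for Fzd5 (edgeR adjusted p = 0.0574 and 0.0637). Without Sham 1 both passed, at 1.16 and -1.07 (edgeR adjusted p = 0.0304 and 0.0491). The ratio of Fzd8 to Fzd5 per kilobase, which no scaling of the libraries can change, was 1.56, 1.497 and 1.007 in CKD 1, 2 and 3, against 0.204, 0.414 and 0.199 in Sham 1, 2 and 3. As the groups lay apart in opposite directions in these genes, the ratio had to lie apart too, and it carries no test.

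Fzd9 had 0.578, 0.248 and 1.996 CPM in CKD 1, 2 and 3, against 5.73, 11.03 and 2.88 CPM in Sham 1, 2 and 3. The groups did not overlap, with CKD 3 and Sham 3 the nearest libraries across them. The log2 fold change was -2.79 ± 0.83 (edgeR adjusted p = 0.0946), or -3.95 without CKD 3 and -2.23 without Sham 2. Sham 2, the highest library for Fzd9, was also the highest for collecting duct markers. The orders differed elsewhere. The markers summed higher in Sham 3 than in Sham 1, and within CKD they were highest in CKD 1. Fzd9 was higher in Sham 1 than in Sham 3, and within CKD it was highest in CKD 3. The part of cell make-up in the difference in Fzd9 was not tested.

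Fzd4, which also binds the non-Wnt ligand norrin, averaged 101 ± 19.0 CPM in CKD and 117 ± 9.09 CPM in Sham (SD, n = 3 each). Fzd6 averaged 20.4 ± 3.53 CPM in CKD and 23.1 ± 11.4 CPM in Sham, and Fzd3, a receptor of the planar polarity branch, 6.20 ± 1.10 and 6.99 ± 3.35 CPM in CKD and Sham. The groups overlapped in all of these genes. The fold changes of Fzd3, Fzd4, Fzd6 and Fzd7 were slightly negative and turned positive with library totals alone, at 0.25, 0.21, 0.26 and 0.11 on the log2 scale. Fzd10 missed the filter, with 5, 6 and 2 counts in CKD 1, 2 and 3 and 0, 0 and 2 in Sham 1, 2 and 3.

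The make-up of Frizzled RNA differed between the groups. Per kilobase of the deposited gene length, Fzd1 made up 70.0%, 68.5% and 65.6% of the summed receptor level in CKD 1, 2 and 3, against 22.9%, 26.5% and 41.2% in Sham 1, 2 and 3. Fzd4 made up 15.3%, 18.1% and 20.8% in CKD 1, 2 and 3, against 41.4%, 38.2% and 34.9% in Sham 1, 2 and 3. Shares within a library depend on each other and carry no test, and the CPM of Fzd4 itself overlapped between the groups. Fzd1 thus led in every CKD library, while Fzd4 led in Sham 1 and Sham 2 and Fzd1 in Sham 3. Without the division by length the Fzd1 share was 42.8% to 47.3% in CKD and 9.48% to 20.8% in Sham. The length of 1668 bases given for Fzd1 is the same in every library, so it could not change their order by this share. It does set the size of the share, and the coordinates given above for Fzd1 span more bases than that. With a longer length the levels per kilobase and the shares of Fzd1 would be lower. Its lead in Sham 3 hangs on the division by length. There Fzd1 had 68.1 CPM without that division, below Fzd4 at 124 CPM and Fzd5 at 73.6 CPM. The summed receptor level itself was 148 to 159 CPM per kilobase in CKD and 77.5 to 99.0 in Sham. In bulk tissue, a change in the number of cells of a type and a change in RNA per cell cannot be told apart.

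**Figure D2:**
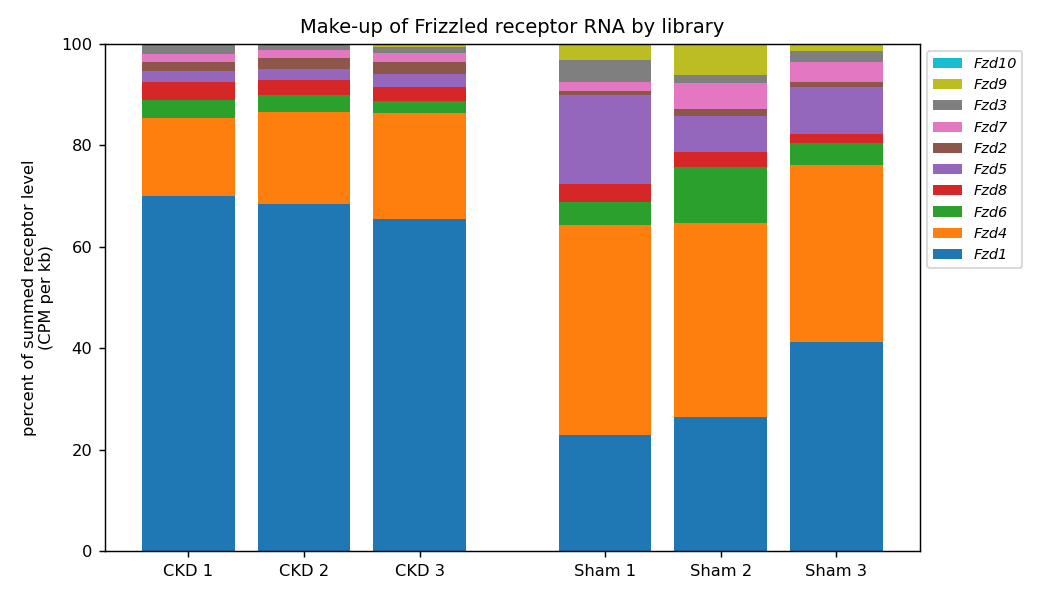
Each bar is 1 library and shows the percent that each Frizzled gene made up of the summed receptor level (CPM per kilobase). The lowest block, Fzd1, fills 65.6% to 70.0% of the CKD bars and 22.9% to 41.2% of the Sham bars. It would be smaller with a longer length for Fzd1, whose coordinates span more bases than its deposited length.

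Ligands. The 19 Wnt genes were rare next to their receptors: together they summed to 29.3, 35.7 and 38.2 CPM in CKD 1, 2 and 3, against 49.2, 15.1 and 15.2 CPM in Sham 1, 2 and 3. The sum thus overlapped between the groups through Sham 1, which was the highest library of all. None of the 10 ligands tested passed in edgeR with TMM scaling and all libraries, where 3 had an unadjusted p under 0.05. With library totals alone edgeR called Wnt5b and Wnt9a, and without Sham 1 it called Wnt7a and Wnt7b. DESeq2 called Wnt5b, Wnt9a and Wnt2b, and limma-voom called 0.

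Wnt5b, mostly a ligand of the beta-catenin-independent branch, had 6.17, 11.9 and 7.62 CPM in CKD 1, 2 and 3, against 4.73, 2.02 and 3.23 CPM in Sham 1, 2 and 3. All CKD libraries lay above all Sham libraries, and the log2 fold change came to 1.36 ± 0.43 (edgeR adjusted p = 0.112). Its gene overlaps Fbxl14 on the other strand, and whether the counting used strand is not stated in the sources used here, so some of its counts may belong to Fbxl14. Wnt9a had 3.61, 3.97 and 2.41 CPM in CKD 1, 2 and 3, against 0.666, 1.67 and 0.985 CPM in Sham 1, 2 and 3. Its log2 fold change was 1.58 ± 0.50 (edgeR adjusted p = 0.108). With all 6 libraries, Wnt2b was the only tested ligand with a negative fold change. It had 0.675, 1.14 and 0.768 CPM in CKD 1, 2 and 3, against 10.99, 2.44 and 2.11 CPM in Sham 1, 2 and 3. The groups did not overlap, but Sham 1 set the size of the difference: the log2 fold change was -2.58 ± 0.74 (edgeR adjusted p = 0.0871) and -1.44 without Sham 1. The gene of Wnt2b overlaps St7l on the other strand, with the same limit.

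**Figure D3:**
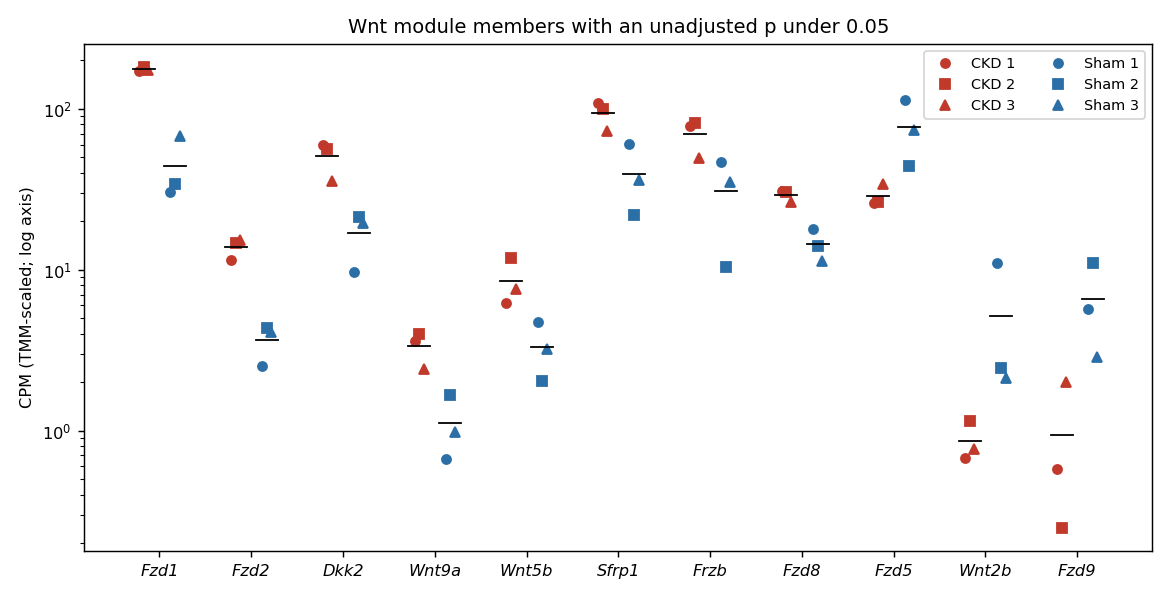
CPM on a log axis of the 11 members with an unadjusted p under 0.05, with 1 point per library, CKD in red to the left of Sham in blue, and a line at each mean. In all 11 the CKD points and the Sham points do not overlap, with the smallest gaps in Frzb and Sfrp1.

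Wnt5a, the other ligand of its kind, had 11.5, 11.5 and 17.7 CPM in CKD 1, 2 and 3, against 22.0, 6.63 and 6.61 CPM in Sham 1, 2 and 3. Wnt7b, which acts in the formation of the renal medulla in the mouse embryo, had 1.59, 1.69 and 3.68 CPM in CKD 1, 2 and 3, against 4.996, 0.140 and 0.141 CPM in Sham 1, 2 and 3. Wnt10a had 0.867, 0.893 and 1.02 CPM in CKD 1, 2 and 3, against 2.33, 0 and 0.141 CPM in Sham 1, 2 and 3. In these 3 genes Sham 1 was the highest library of all 6, and Sham 2 and Sham 3 lay below every CKD library. Without Sham 1 the log2 fold change of Wnt7b was 3.94, in place of 0.39 (edgeR adjusted p = 0.873 with all libraries), and it then passed; that of Wnt10a was 3.56 in place of 0.16 and that of Wnt5a was 0.99 in place of 0.20, and neither passed. Wnt7a, with 19, 20 and 17 counts in CKD 1, 2 and 3 and 7, 0 and 0 in Sham 1, 2 and 3, also passed without Sham 1, against 2 libraries at 0. With Sham 1 left out, Wnt7a, Wnt7b and Wnt10a lay under the count minimum in both remaining Sham libraries, so that they could not have been tested without being higher in CKD.

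Wnt4, the nephron-forming ligand, had 20, 11 and 15 counts in CKD 1, 2 and 3, against 7, 3 and 1 in Sham 1, 2 and 3. Wnt9b had 12, 16 and 17 counts in CKD 1, 2 and 3, against 8, 8 and 3 in Sham 1, 2 and 3. Both were thus counted in every library, at under 1 CPM, and neither passed (edgeR adjusted p = 0.225 and 0.453). Wnt2 averaged 1.23 ± 0.22 CPM in CKD and 1.02 ± 0.69 CPM in Sham (SD, n = 3 each), with overlapping groups.

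The other 9 ligands missed the filter. Wnt6 had 7, 11 and 6 counts in CKD 1, 2 and 3 and 1, 0 and 0 in Sham 1, 2 and 3, and Wnt11 had 14, 6 and 11 in CKD and 2, 0 and 4 in Sham. Wnt8b had 0 counts in each CKD library and 0, 10 and 3 in Sham 1, 2 and 3. Wnt1, Wnt3, Wnt8a and Wnt10b had at most 6 counts in any library, and Wnt3a and Wnt16 had 0 in all 6. A count of 0 allows up to 3 counts, or 0.145 to 0.154 CPM in a CKD library and 0.1998 to 0.211 CPM in a Sham library, counting error alone considered.

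Co-receptors. Lrp6 had 84.0, 83.8 and 82.2 CPM in CKD 1, 2 and 3, against 40.2, 34.2 and 82.3 CPM in Sham 1, 2 and 3. The CKD libraries were nearly equal, and Sham 3 lay at their level while the other Sham libraries lay far lower (edgeR adjusted p = 0.266). Lrp5 averaged 68.5 ± 7.57 CPM in CKD and 55.3 ± 9.24 CPM in Sham (SD, n = 3 each), with overlapping groups.

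Antagonists that bind the ligand. Sfrp1 had 109, 100 and 72.8 CPM in CKD 1, 2 and 3, against 60.8, 21.8 and 36.1 CPM in Sham 1, 2 and 3. Frzb, also called Sfrp3, had 78.7, 81.2 and 49.8 CPM in CKD 1, 2 and 3, against 46.8, 10.4 and 35.0 CPM in Sham 1, 2 and 3. Per kilobase, Frzb averaged 25.5 CPM in CKD and 11.2 CPM in Sham, and Sfrp1 22.01 CPM in CKD and 9.26 CPM in Sham. In both genes the groups did not overlap, CKD 3 was the lowest CKD library and Sham 2 the lowest Sham library. The log2 fold change was 1.25 ± 0.38 for Sfrp1 and 1.19 ± 0.50 for Frzb (edgeR adjusted p = 0.098 and 0.203), or 0.91 and 0.73 without Sham 2. Sfrp1 passed without Sham 1, at 1.66 (edgeR adjusted p = 0.0278). The order of the 6 libraries by Sfrp1 was their order by the summed fibroblast and pericyte markers given above, from CKD 1 down to Sham 2, and for Frzb it differed in CKD 1 and CKD 2 changing places. The called members Fzd1 and Fzd2 did not follow that order within the groups. Each was lowest of the CKD libraries in CKD 1 and lowest of the Sham libraries in Sham 1, where the marker sums were the highest of each group. The part of cell make-up in these values was not tested.

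Sfrp2 had 27.3, 20.4 and 11.2 CPM in CKD 1, 2 and 3, against 4.53, 47.8 and 21.6 CPM in Sham 1, 2 and 3. The Sham libraries spanned the whole range of the CKD libraries, and the log2 fold change of -0.33 was 0.55 without Sham 2 and -0.88 without Sham 1. Wif1, at 1.29 ± 0.10 CPM in CKD and 0.89 ± 0.29 CPM in Sham (SD, n = 3 each), was higher in every CKD library than in any Sham library without passing (edgeR adjusted p = 0.539). Sfrp4 had 38, 11 and 3 counts in CKD 1, 2 and 3, against 1, 0 and 13 in Sham 1, 2 and 3. Sfrp5 missed the filter, with at most 6 counts in a library.

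Dickkopf genes. Dkk2, which binds Lrp5 and Lrp6, had 59.6, 56.6 and 35.8 CPM in CKD 1, 2 and 3, against 9.66, 21.4 and 19.5 CPM in Sham 1, 2 and 3. The groups did not overlap, and the gene narrowly missed the threshold (log2 fold change 1.59 ± 0.35, edgeR adjusted p = 0.053). It passed without Sham 1, at 1.26 (edgeR adjusted p = 0.0371), with no filter, with library totals alone and in DESeq2. Dkk3, a distant member of the family, had 13.5, 18.4 and 14.9 CPM in CKD 1, 2 and 3, against 8.66, 0.279 and 1.90 CPM in Sham 1, 2 and 3. The groups did not overlap (edgeR adjusted p = 0.212), and without Sham 1 the log2 fold change was 3.80 in place of 2.104 and passed. Dkk1, an antagonist that beta-catenin itself induces, had 4, 7 and 7 counts in CKD 1, 2 and 3 and 10, 0 and 4 in Sham 1, 2 and 3. Dkk4 had 1, 4 and 1 counts in CKD 1, 2 and 3 and 6, 3 and 5 in Sham 1, 2 and 3. Both missed the filter, and Dkk4 overlaps Polb on the other strand.

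**Figure D4:**
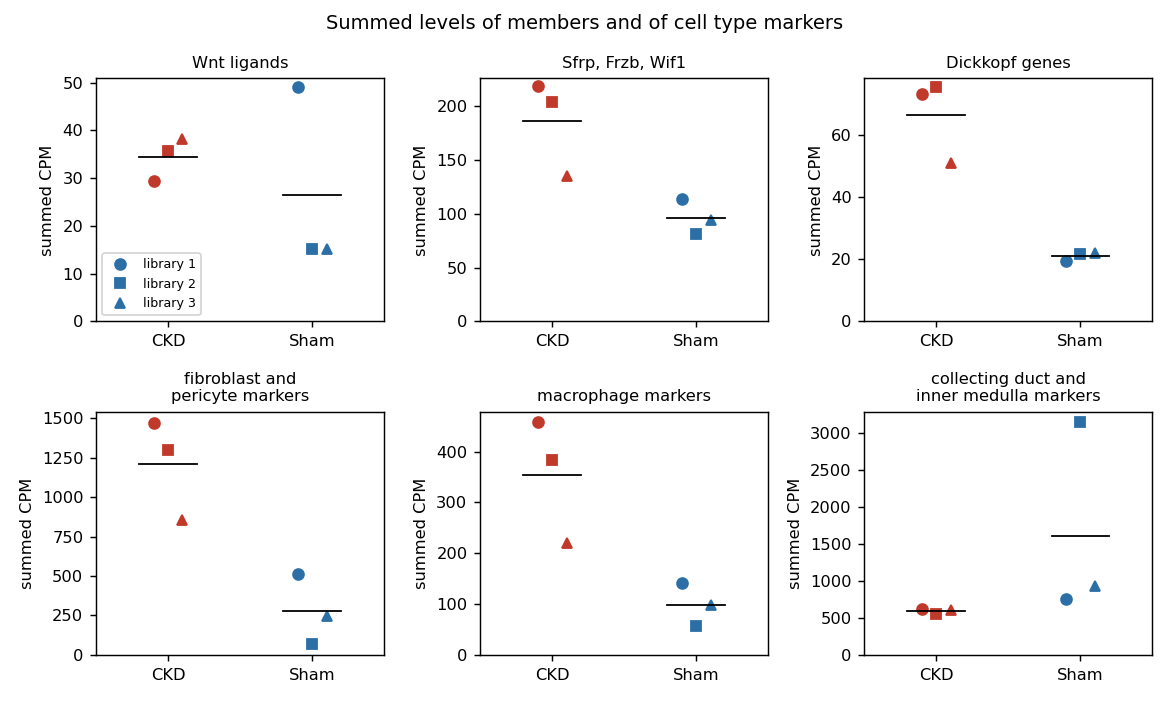
Summed CPM per library (1 point each, line at the mean) for 3 groups of members and for 3 lists of cell type markers. The Sfrp, Frzb and Wif1 group, the Dickkopf genes and the fibroblast and pericyte and macrophage markers lay higher in every CKD library than in any Sham library; for the ligands Sham 1, at 49.2 CPM, was the highest point, and for collecting duct markers Sham 2, at 3155 CPM.

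Beta-catenin and its feedback targets. Ctnnb1, the most abundant member, had 515, 555 and 469 CPM in CKD 1, 2 and 3, against 410, 321 and 381 CPM in Sham 1, 2 and 3. The groups did not overlap, but the log2 fold change of 0.47 ± 0.26 did not pass (edgeR adjusted p = 0.308). Ctnnb1 RNA does not measure the protein, which Wnt signalling controls by its breakdown. Axin2, a brake on the pathway and its most used transcriptional read-out, had 6.99, 5.16 and 4.66 CPM in CKD 1, 2 and 3, against 7.66, 3.28 and 3.16 CPM in Sham 1, 2 and 3. The groups overlapped through Sham 1 (log2 fold change of 0.25 with an SE of 0.44, edgeR adjusted p = 0.774), and without it the log2 fold change was 0.75, again without passing. Lef1, a partner of beta-catenin on DNA, had 18, 29 and 18 counts in CKD 1, 2 and 3, against 8, 13 and 10 in Sham 1, 2 and 3, with overlapping CPM (edgeR adjusted p = 0.516).

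The bases upstream of Axin2 are shown because they carry the letters that TCF/LEF factors bind, and those upstream of Fzd1, the gene with the larger rise, for comparison. Both sequences are the 250 bases before the gene start, 5′ to 3′, from RefSeq promoters on GRCr8, which is not the build of the counts. Axin2 is at chr10:94398535-94398784 and Fzd1 at chr4:30264824-30265073, both on the plus strand, and capitals mark CTTTGAA or CTTTGAT on either strand.
Axin2: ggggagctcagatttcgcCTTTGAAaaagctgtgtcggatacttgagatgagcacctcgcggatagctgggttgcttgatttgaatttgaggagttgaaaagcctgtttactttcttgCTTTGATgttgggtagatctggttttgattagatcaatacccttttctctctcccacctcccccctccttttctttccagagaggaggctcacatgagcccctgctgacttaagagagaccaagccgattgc
Fzd1: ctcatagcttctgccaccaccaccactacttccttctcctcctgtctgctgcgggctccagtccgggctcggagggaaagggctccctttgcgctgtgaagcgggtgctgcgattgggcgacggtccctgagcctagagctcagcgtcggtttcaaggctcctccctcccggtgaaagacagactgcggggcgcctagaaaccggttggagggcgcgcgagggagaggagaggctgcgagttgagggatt
Axin2 held CTTTGAA starting 232 bases and CTTTGAT starting 132 bases before its start, and the Fzd1 window held neither. Of 31 members matched to a promoter by symbol, 3 held at least 1 of these motifs (Axin2, Dkk1 and Wnt8a), or 9.68%, against 7.58% of all 33469 promoters. The 31 matched are not the 31 tested. A match of letters is a description and not a binding site.

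Other genes of the pathway. Of 74 tested genes of Wnt secretion, other receptors, the cytoplasmic and nuclear relay and the planar polarity and calcium branches, 1 passed higher and 0 lower in edgeR, where 3.82% of all genes tested were called. At an unadjusted p under 0.05 stood 15 higher and 6 lower, where 13.5% of all genes tested stood higher and 10.3% lower. No overlap between the groups was seen in 39.2% of the 74, against 31.2% of all genes tested, and the median log2 fold change was 0.20, against -0.01. DESeq2 called 7 higher and 4 lower, and limma-voom called 0; without Sham 1 edgeR called 5 higher and 3 lower. The called gene was Bcl9, a co-activator that docks on beta-catenin. It had 25.1, 22.2 and 25.5 CPM in CKD 1, 2 and 3, against 10.8, 12.002 and 12.1 CPM in Sham 1, 2 and 3 (log2 fold change 1.06 ± 0.21, edgeR adjusted p = 0.0415). It rose in all 3 CKD libraries by about the same amount, although without any single library other than Sham 1 the edgeR adjusted p was 0.0617 to 0.184. Tcf7, a TCF factor that T cells also make, averaged 10.1 ± 2.50 CPM in CKD and 3.55 ± 0.79 CPM in Sham (edgeR adjusted p = 0.0537). Lymphocyte markers summed to 15.4 to 23.4 CPM in CKD and 4.47 to 5.33 CPM in Sham, and their part in Tcf7 was not tested.

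Sost, which encodes the Lrp5 and Lrp6 blocker sclerostin, had 6.79, 3.72 and 3.17 CPM in CKD 1, 2 and 3, against 0.1998, 1.26 and 0.563 CPM in Sham 1, 2 and 3. Rspo1, a secreted amplifier of Wnt signals, averaged 1.47 ± 0.26 CPM in CKD and 0.26 ± 0.27 CPM in Sham, and Ptk7, a co-receptor of the planar polarity branch, 37.7 ± 1.23 CPM in CKD and 22.1 ± 4.70 CPM in Sham. The CKD libraries lay above the Sham libraries in all of these genes, and none passed (edgeR adjusted p = 0.0666, 0.095 and 0.0851 for Sost, Rspo1 and Ptk7). Rspo1 had 35, 31 and 23 counts in CKD 1, 2 and 3, against 1, 8 and 2 in Sham 1, 2 and 3. It reached the count minimum in CKD libraries alone, so that it could not have been tested without being higher there. Prickle2, also of the planar polarity branch, averaged 23.8 ± 3.85 CPM in CKD and 12.005 ± 1.56 CPM in Sham, and Nfatc1, a factor of the calcium branch, 17.97 ± 1.65 CPM in CKD and 8.97 ± 3.86 CPM in Sham. Mapk8, the kinase JNK1, averaged 23.2 ± 2.18 CPM in CKD and 43.5 ± 13.7 CPM in Sham, and Tle2, a co-repressor, 6.56 ± 2.89 CPM in CKD and 21.1 ± 16.1 CPM in Sham. None of these passed in edgeR (adjusted p = 0.0586, 0.131, 0.0933 and 0.134).

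Of 22 tested genes that beta-catenin is known to induce in other settings, 2 passed higher and 0 lower, where 3.82% of all genes tested were called. At an unadjusted p under 0.05 stood 5 higher and 2 lower, where 23.8% of all genes tested did. Non-overlapping groups were found in 31.8% of the 22, against 31.2% of all genes tested, and the median log2 fold change was 0.08, against -0.01. The called genes were Cd44, a hyaluronan receptor, and Fn1, fibronectin, both of which respond to other signals too. Cd44 had 98.2, 66.7 and 36.8 CPM in CKD 1, 2 and 3, against 13.4, 15.5 and 12.1 CPM in Sham 1, 2 and 3 (log2 fold change 2.30 ± 0.36, edgeR adjusted p = 0.0323). Myc, a regulator of cell growth that answers to many pathways, averaged 28.2 ± 10.2 CPM in CKD and 78.1 ± 21.3 CPM in Sham (edgeR adjusted p = 0.0557), so the genes of this list did not lie to 1 side. Calls for Cd44 and Fn1 were lost in limma-voom, at an adjusted p = 0.0504 and 0.0524, and without CKD 1, CKD 2, Sham 2 or Sham 3 in edgeR (adjusted p = 0.0604 to 0.171).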

How the data were processed

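TRIzol-extracted total RNA went into VAHTS Universal V5 libraries, per the labels' protocols. The deposited file holds raw whole-number counts by gene, 1 column for each library, together with gene lengths and coordinates; all 6 columns were matched by sample title. The submitters' processing notes name fastp 0.20.1, HISAT2 2.1.0, HTSeq 0.11.2 and Rnor_6.0, with no role or order; the highest gene end on chromosome 1 is 260398790, and the build of the coordinates is uncertain. Genes were kept by filterByExpr (minimum count 10, minimum total 15), scaled by TMM and fitted with edgeR 4.0.16 (R 4.3.3; quasi-likelihood, robust, group as the only term), with Benjamini-Hochberg adjustment over 15371 genes. The model was checked on simulated data, where it missed most of the smaller changes and many of the larger ones. A gene that did not pass is not thereby shown to be alike in both groups. An exact permutation test of 3 against 3 cannot go below p = 0.1 and was not used. Standard errors are the log2 fold change over the root of the F statistic. Members and lists were chosen with earlier results of these data known. Members with an unadjusted p under 0.05 get full statistics, the others their levels; of each other list, called genes and the 3 with the smallest p are named, and other genes, Myc among them, were named after their values were seen. A listed gene with a small p is not reported here. Alternatives used DESeq2 1.42.0, limma-voom (limma 3.58.1), other scalings and filters, removal of mitochondrial genes, a replicate block and each library left out. No library was a copy of another: within a group the chi-square over genes was 30.9 to 330 times its degrees of freedom.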

Additional observations from a re-analysis of the deposited data

How the results depend on the processing

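Of the members called in edgeR, Fzd1 and Fzd2 were also called with RLE factors, library totals, no filter, a filter of CPM 1 in 3 libraries, no robust fit, DESeq2, limma-voom, mitochondrial genes removed and without Sham 1. The count of 2 members called was 7 with library totals alone (all higher), 4 with no filter, 10 in DESeq2 (7 higher, 3 lower) and 0 to 9 without single libraries; the 9 were without Sham 1, and without each of the other libraries it was 0 in edgeR, with 8 to 12 at an unadjusted p under 0.05. Over all genes 587 calls became 2228 with library totals, 2497 in DESeq2, 195 in limma-voom and 0 to 1711 without single libraries. The 1 other pathway gene became 13 with library totals, 11 in DESeq2, 0 in limma-voom (22 unadjusted) and 0 to 8 without single libraries. The 2 target genes became 5 with library totals, 4 with no filter, 6 in DESeq2, 0 in limma-voom (7 unadjusted) and 0 to 8 without single libraries. Library totals alone gave 2047 of the 2228 calls higher, against 411 of 587. The cause of these shifts was not tested.

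Same-numbered CKD and Sham libraries did not deviate together (r = -0.206, 0.00452 and -0.157), so the replicate numbers are not taken as pairs. With a replicate block edgeR called 10 genes in all, and 0 members, 0 other pathway genes and 0 target genes (14, 14 and 7 unadjusted); Fzd1 had a log2 fold change of 2.09 and an adjusted p = 0.0536. The fold changes of 21 tested members kept their sign in every alternative that tested them, and 10 turned, none of them called in any setting but Wnt7b without Sham 1. With library totals the log2 fold change was 0.12 for Sfrp2, 0.25 for Fzd3, 0.21 for Fzd4, 0.26 for Fzd6 and 0.11 for Fzd7, and limma-voom gave 0.16 for Sfrp2. Without single libraries it ran from -0.88 to 0.55 for Sfrp2, -0.029 to 0.75 for Axin2, -0.46 to 3.56 for Wnt10a, -0.19 to 0.84 for Wnt2, -0.14 to 0.99 for Wnt5a, -0.20 to 3.94 for Wnt7b, -0.52 to 0.20 for Fzd3 and -0.47 to 0.26 for Fzd6. Low counts limit the ligands, 14 of which had under 40 counts in every library.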

Other observations

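The make-up of ligand RNA differed between the groups in the place of Wnt2b, a ligand known from the stroma of developing organs. Per kilobase, Wnt2b made up 2.43%, 3.21% and 2.27% of the summed ligand level in CKD 1, 2 and 3, against 26.6%, 18.3% and 15.1% in Sham 1, 2 and 3. Wnt5b made up 29.9%, 44.8% and 30.4% in CKD 1, 2 and 3, against 15.4%, 20.4% and 31.1% in Sham 1, 2 and 3, and Wnt5a 21.5%, 16.9% and 27.3% in CKD 1, 2 and 3, against 27.8%, 25.9% and 24.6% in Sham 1, 2 and 3. The shares of Wnt5a and of Wnt5b overlapped between the groups. The ratio of Wnt5b to Wnt2b was 12.3, 14.0 and 13.3 in CKD 1, 2 and 3, against 0.578, 1.11 and 2.06 in Sham 1, 2 and 3. That ratio had to lie apart, as the groups lay apart in opposite directions in its genes. The shares and the ratio carry no test, and both Wnt5b and Wnt2b overlap a gene on the other strand.

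Of the co-receptors and secretion genes, Wls, which carries Wnt proteins to the cell surface, averaged 298 ± 50.3 CPM in CKD and 206 ± 30.0 CPM in Sham (SD, n = 3 each), without overlap between the groups, and Ror1, a receptor for Wnt5a, 6.13 ± 1.14 CPM in CKD and 2.70 ± 1.89 CPM in Sham, also without overlap. Neither passed in edgeR (adjusted p = 0.249 and 0.233), and both were chosen after their values were seen. Lgr5, a receptor for the R-spondins and a beta-catenin target, missed the filter. It had 1, 4 and 4 counts in CKD 1, 2 and 3, against 4, 42 and 11 in Sham 1, 2 and 3. Its CPM was lower in every CKD library, at 0.15 ± 0.09 CPM in CKD and 1.32 ± 1.41 CPM in Sham. However, CKD 2, CKD 3 and Sham 1 held the same 4 counts, so their order in CPM rests on the scaling of the libraries.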
